A study of Mus musculus with 12 samples.

Results

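APC-deleted tumours in which a hairpin against Tdo2 had been induced with doxycycline (Dox) were compared with untreated APC-intact tumours. The comparison covered all 18193 genes that had a probe set with a single gene symbol, of which 11070 were bright enough to test, on 6 of the 12 arrays of the series. The APC-KO Dox group held 3 tumours of APC-KO MC38 cells with Dox. The untreated APC-WT group held 3 tumours of APC-WT MC38 cells without Dox, and the other 6 arrays came from 3 APC-WT tumours with Dox and 3 APC-KO tumours without it. MC38 is a mouse colon carcinoma line. In every group the cells carried the inducible hairpin (ishTDO2) and were injected into the cecum of C57BL/6 mice. In the groups with Dox it was given in water. No tumour with Dox and without the hairpin was analysed here, so Dox itself and the hairpin cannot be told apart, and this comparison changes genotype and Dox together. No source used here says whether the APC-KO line was 1 clone or whether each tumour came from its own mouse. The p-values therefore speak of the spread among these tumours alone, and that spread may be technical. The series design speaks of cell lines, but each sample is labelled as tumour tissue, and host genes such as Lyz2 and Col3a1, of myeloid cells and fibroblasts, were among the bright ones (mean log2 values of 13.15 and 13.35 without Dox in APC-WT). In such bulk tissue fewer cells of a type and less RNA per cell cannot be told apart.

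APC is a scaffold of the complex that marks beta-catenin for destruction, and its loss leaves Wnt target genes active in intestinal epithelium. TDO2 opens the ring of tryptophan, the first step of the kynurenine pathway, whose products can activate the aryl hydrocarbon receptor. Hypoxia-inducible factor (HIF) drives glycolytic and angiogenic genes when oxygen is low and can also be active in tumours for other reasons.

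Values are the deposited log2 signals, given as such below, and differences are log2 differences with their standard error from limma, an adjusted p under 0.05 being a call. A mean log2 value of 5.55, the median of all probe sets, was the floor for testing. Array medians lay between 5.528 and 5.575 and correlations between arrays of a group between 0.9912 and 0.9968, and no 2 arrays held identical values. The 5' control probe set of 18S ribosomal RNA was at 9.549, 9.448 and 9.735 in the untreated APC-WT tumours and at 9.078, 9.274 and 9.379 in the APC-KO Dox tumours, without overlap, while its middle and 3' probe sets overlapped. Its part in the results was not tested.

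Apc itself was lower. The probe set with the largest difference read 7.84, 7.70 and 7.57 in the untreated APC-WT tumours and 6.74, 6.83 and 6.81 in the APC-KO Dox tumours, a difference of -0.91 ± 0.09 (limma, adjusted p over all probe sets 4.75e-06). The groups did not overlap. A dimmer probe set differed by -0.57 ± 0.11 (adjusted p 0.0018). A further probe set, under the floor at a mean of 3.13, differed by -0.11 (adjusted p 0.49). The brightest differed by -0.20 ± 0.07 and was not called over all probe sets (adjusted p 0.0686). As the tested gene it was called (limma over genes, adjusted p 0.0381). That call was lost on leaving out replicate 1 of untreated APC-WT, replicate 2 or 3 of APC-WT with Dox, or replicate 1 or 3 of APC-KO with Dox (adjusted p up to 0.142). It was also lost with no filter on level, median centring, array weights, only the groups compared and a replicate block (adjusted p up to 0.0912). The deleted stretch of Apc is not stated, and a probe set outside it checks nothing. Tdo2 was under the floor on all arrays at its 3 probe sets (means of 2.59, 3.12 and 3.85), with differences of -0.06, 0.06 and 0.08, none of them called, and its knockdown could not be followed.

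Between untreated APC-WT and APC-KO Dox tumours 3135 of 11070 genes were called (28.3% of those tested). Of these 1704 were higher (15.4%) and 1431 lower (12.9%). At least 2-fold changes were fewer and lay more often on the lower side, with 52 genes higher and 79 lower. The arrays of both groups did not overlap for 4539 genes (41%), and 3020 of the called genes were among them. Without APC-KO Dox replicate 3 the count of called genes was 2031, and over the other arrays left out in turn it was no lower than 2497.

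Lrrn4cl rose most. It lay at 6.75, 6.92 and 6.43 in the untreated APC-WT tumours and at 9.24, 9.57 and 10.35 in the APC-KO Dox tumours. No APC-KO array, with or without Dox, fell among the APC-WT arrays for this gene. Its difference was 3.02 ± 0.22, the largest rise of all named genes (adjusted p 8.52e-07). As3mt, an arsenite methyltransferase gene, rose by 2.27 ± 0.19, and the ferritin receptor gene Scara5 by 2.12 ± 0.16. Ptgis encodes prostacyclin synthase; it was under the floor in the untreated APC-WT tumours, at 5.44, 5.15 and 5.08, and reached 7.28, 7.04 and 7.44 in the APC-KO Dox tumours, which was at least 3.26-fold higher. The transcription factor gene Hlf (1.72 ± 0.14), the adhesion molecule gene Alcam (1.58 ± 0.12), the actin regulator gene Wasf1 (1.57 ± 0.15) and Wnt5a, a ligand of non-canonical Wnt signalling (1.53 ± 0.20), rose as well. Neto2 (1.70 ± 0.36) and Morc4 (1.64 ± 0.09) complete the 10 largest rises. For Neto2 the APC-KO Dox tumours spread widely, at 7.65, 6.29 and 8.18, but stayed above the APC-WT arrays at 5.67, 5.71 and 5.64.

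Genes that fell most were led by Epb41l3, which encodes a band 4.1 protein that links membrane and cytoskeleton. It lay at 8.80, 8.70 and 8.79 in the untreated APC-WT tumours and at 5.77, 5.54 and 5.53 in the APC-KO Dox tumours. These groups were 3 units apart with little spread inside either, a difference of -3.15 ± 0.12 (adjusted p 2.2e-09). Nrep (-3.13 ± 0.12), the surface glycoprotein gene Cd99 (-2.29 ± 0.09), the chondroitin sulfotransferase gene Chst15 (-2.23 ± 0.12) and the metalloprotease gene Adamts9 (-2.15 ± 0.10) fell as well. Nrep, Cd99, Apcdd1, Adm, Gbp2, Aldoa and Gzmd were read by probe sets of the x_at kind, whose probes may also bind other transcripts. Apcdd1, an inhibitor of Wnt signalling that is also a target of it, went from 8.15, 8.15 and 8.37 to 5.99, 6.69 and 5.43 (-2.19 ± 0.23), and the gelatinase gene Mmp2 also fell (-2.19 ± 0.20). In these 7 genes the step between APC-KO without and with Dox ran from -0.58 (Mmp2) to 0.26 (Nrep), and none of these steps was called.

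Of the 10 largest falls, 3 behaved differently across the 4 groups. Ms4a4d, of the MS4A membrane proteins, was at 7.74, 7.56 and 7.85 in the untreated APC-WT tumours and under the floor in all APC-KO Dox tumours, so that it was at least 4.48-fold lower; in the APC-WT Dox tumours it was already at 5.48, 6.08 and 6.12. The keratin gene Krt8 was at 11.65, 10.70 and 10.12 untreated, at 9.59, 9.35 and 9.47 in APC-WT with Dox, at 10.09, 9.13 and 9.58 in APC-KO without Dox and at 9.02, 7.20 and 8.57 in APC-KO with Dox (-2.56 ± 0.41, adjusted p 0.000616). The untreated APC-WT tumours were thus the highest and the APC-KO Dox tumours the lowest, with the other 2 groups between them. Mmp13, the collagenase 3 gene, was lower in the APC-KO Dox tumours than in each of the other groups and is described with the differences added under Dox.

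**Figure D1:**
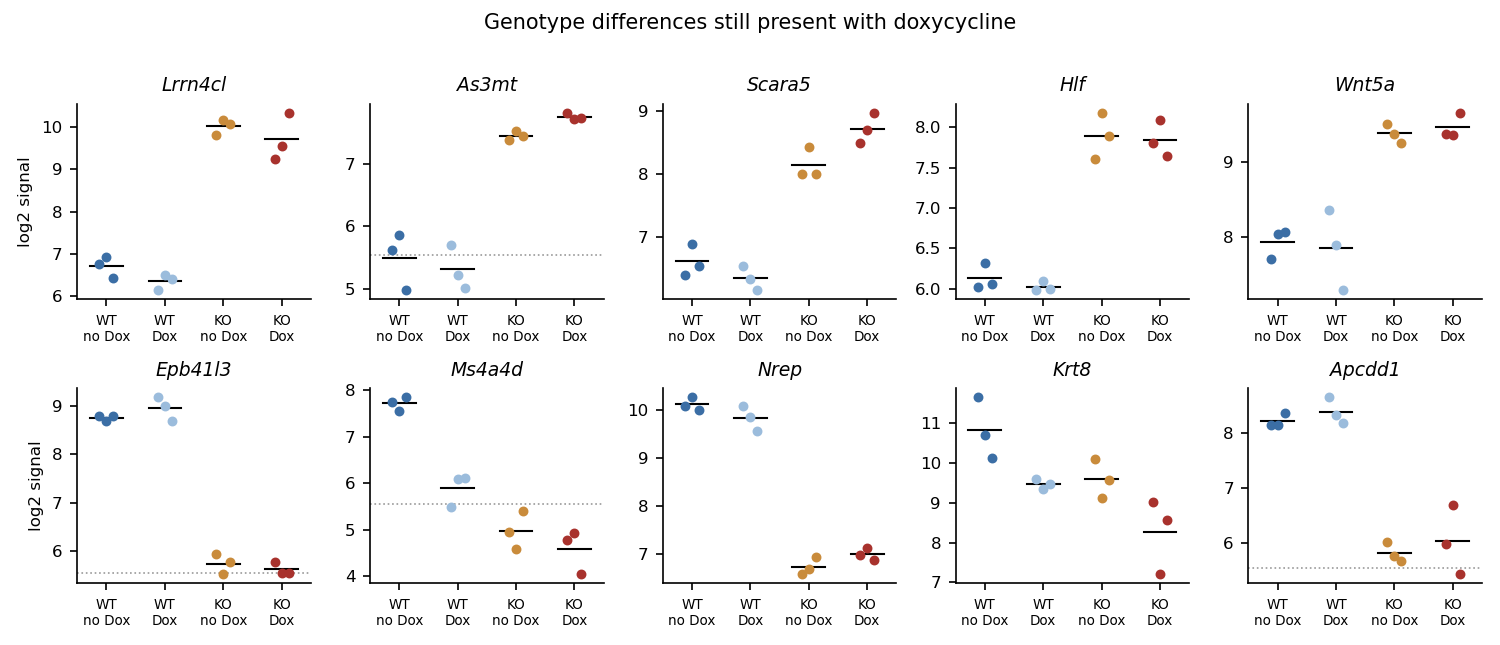
Log2 signal of 10 genes on each of the 12 arrays, by group (WT, APC-intact; KO, APC-deleted). Points are arrays, black bars group means and dotted lines the floor of 5.55; neither KO group overlaps untreated WT in any panel, and for Ms4a4d and Krt8 the WT Dox arrays also lie below untreated WT.

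To ask which genotype differences were returned, kept or overshot under Dox, each gene called between APC-KO and APC-WT tumours without Dox was followed in the APC-KO Dox tumours. That genotype comparison called 2753 genes (24.9%), and the comparison of APC-KO with and without Dox called 60 (0.542%). The 3 comparisons share arrays pair by pair, so the classes describe these arrays and are not independent evidence. Of the 2753 differences 2003 (72.8%) were kept, which means called in the same direction against untreated APC-WT and not called between APC-KO with and without Dox; 1099 were higher and 904 lower. The median share of the genotype difference that remained among them was 102.7%. Returned were 25 (0.908%), 6 were overshot (0.218%), 1 was extended (0.0363%), none was partly returned and 718 (26.1%) were unsettled, called in neither later comparison. Over all 2753 genes the median share that remained was 91.1%; it was under 0 for 45 genes and between 0 and 50% for 314.

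Returned genes were ones whose genotype difference was called, whose opposite shift between APC-KO without and with Dox was called, and which were not called against untreated APC-WT. Of the 25, 23 were higher in APC-KO without Dox, and 2 were lower, Arhgap11a and the mitochondrial phosphoenolpyruvate carboxykinase gene Pck2. The class rested on single tumours: leaving out APC-KO Dox replicate 3 left 0 genes, leaving out replicate 1 of APC-KO without Dox left 3, APC-KO Dox replicate 2 left 8 and APC-WT Dox replicate 2 left 13. A missed call does not show equal levels, so the 95% interval of the remaining difference is given with the genes described below. Osm, Cd14, Ak4 and Mgarp have the difference alone, and members that are only listed have neither.

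The widest swings among them were those of S100a9, S100a8, Cxcl2 and Cxcl1. S100a9, which with S100a8 encodes calprotectin, a protein abundant in neutrophils, was at 4.33, 6.53 and 6.89 in untreated APC-WT, at 10.00, 9.51 and 7.61 in APC-KO without Dox and at 4.78, 5.43 and 4.01 in APC-KO with Dox. The APC-KO Dox tumours were all under the floor, and 2 of the untreated APC-WT tumours lay above them. The difference left was -1.18 ± 0.70 (interval -2.68 to 0.33), and for S100a8 it was -1.13 ± 0.64 (-2.49 to 0.24). Cxcl2 and Cxcl1 encode ligands of the neutrophil receptor CXCR2. Cxcl2 was at 4.88, 6.43 and 6.10, then 8.60, 7.79 and 7.28, then 5.22, 3.70 and 4.10 in the same order of groups, leaving -1.46 ± 0.55 (-2.63 to -0.29, adjusted p 0.0601). For Cxcl2, S100a8 and S100a9 all APC-KO Dox values and 1 untreated APC-WT value lay under the floor, so the sizes left for these 3 genes are imprecise. Cxcl1 ended at -0.35 ± 0.46 (-1.35 to 0.64), with the sign turned, at 0.13, when replicate 3 of untreated APC-WT was left out. Ier3, an immediate early gene of stress and NF-kB signalling, went up by 1.53 and back by 1.56, leaving -0.03 ± 0.24 (-0.54 to 0.48). The cytokine gene Osm and the lipopolysaccharide co-receptor gene Cd14 were left at -0.33 and -0.09.

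Of the listed HIF targets Egln3 and Hilpda were returned, and of the glycolysis list Ldha and Pgam1. Egln3, an oxygen-sensing prolyl hydroxylase gene, was at 9.81, 9.83 and 10.10 in untreated APC-WT, at 10.51, 10.99 and 10.41 in APC-KO without Dox and at 9.81, 9.50 and 9.68 in APC-KO with Dox, leaving -0.25 (-0.53 to 0.03). Its APC-KO tumours without Dox stood above all others. Hilpda, of lipid droplets, kept 0.22 (-0.13 to 0.58) of 1.10, and the angiogenic factor gene Pgf, in neither list, kept 0.05 (-0.16 to 0.25) of 0.77. Ldha, which makes lactate from pyruvate, was left at -0.18 (-0.32 to -0.03, adjusted p 0.0666) and Pgam1, a phosphoglycerate mutase, at 0.05 (-0.06 to 0.16). Outside these lists, the adenylate kinase gene Ak4 and Mgarp, of mitochondria, were left at 0.01 and -0.09.

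Position moved with the returned class. Of its 25 genes 10 lie on chromosome 3, which held 5.0% of tested genes: Car13, Fxr1, H2ac19, Hspa4l, Mgarp, Rfxap, S100a8, S100a9, Sh3glb1 and Tpd52. With APC-KO Dox replicate 1 left out the class also held 25 genes, with 5 on chromosome 3; with the mean of probe sets it was 4 of 14 and with only the groups compared 3 of 11. Chromosome 3 genes were as a whole higher in APC-KO without Dox, with a median difference of 0.167 against 0.011 over all genes, and lower with Dox in APC-KO, at -0.122 against 0.002, which left 0.05. Relative to each gene's mean over all arrays, and less each array's median over all genes, the median of chromosome 3 was 0.083, 0.147 and 0.075 in the APC-KO tumours without Dox and no higher than 0.017 on any other. Of 226 genes on it that were higher in APC-KO without Dox, 106 (46.9%) were kept, against 1099 of 1525 over all tested genes. On chromosome 13 it was 8 of 17 (47.1%), and on chromosomes 14 and 9 the share was 55.2% and 57.4%. The smallest genotype differences among the 10 were those of Sh3glb1 and Tpd52, both 0.31, and the largest that of S100a9, 3.13. The middle 18S probe set moved the same way, at 9.804, 10.165 and 9.89 in APC-KO without Dox and no higher than 9.614 elsewhere, and its part in the class was not tested.

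Overshot genes were higher in APC-KO than in APC-WT without Dox and ended below untreated APC-WT with Dox. They were Adm, Angpt2, Bnip3, Ccn2, Slc2a1 and Tiparp. Bnip3, a mitophagy gene, was at 9.41, 9.77 and 10.24 in untreated APC-WT, at 10.71, 10.59 and 10.23 in APC-KO without Dox and at 9.22, 8.84 and 8.86 in APC-KO with Dox. It ended at -0.83 ± 0.21 (adjusted p 0.011), with all APC-KO Dox tumours below all untreated APC-WT tumours. Slc2a1, the main glucose transporter gene, rose by 0.76 and ended at -0.46 ± 0.14 (adjusted p 0.0255), from 9.90, 9.67 and 10.26 to 9.64, 9.30 and 9.50. Its groups did not overlap but nearly met, at 9.67 and 9.64. Angpt2, a vessel-destabilising ligand, ended at -0.52 ± 0.14, the vasodilator peptide gene Adm at -0.42 ± 0.14 and Tiparp, a target and repressor of the aryl hydrocarbon receptor, at -0.30 ± 0.08.

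Ccn2, a matricellular gene of YAP and TGF-beta signalling, was the sixth. It was at 6.75, 7.62 and 6.29 in untreated APC-WT, at 7.55, 7.81 and 7.63 in APC-KO without Dox and at 6.16, 6.13 and 6.27 in APC-KO with Dox (-0.70 ± 0.23, adjusted p 0.0341). In APC-WT with Dox it was lower still, at 5.77, 5.83 and 5.78. None of the 6 kept the class in every refit: with 1 array left out between 1 and 9 genes were overshot, and of the 6, Bnip3 alone remained when APC-KO Dox replicate 2 or 3 was left out and Slc2a1 alone when replicate 2 of APC-KO without Dox was. When replicate 1 of untreated APC-WT was left out none of the 6 remained, and 3 other genes were overshot.

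**Figure D2:**
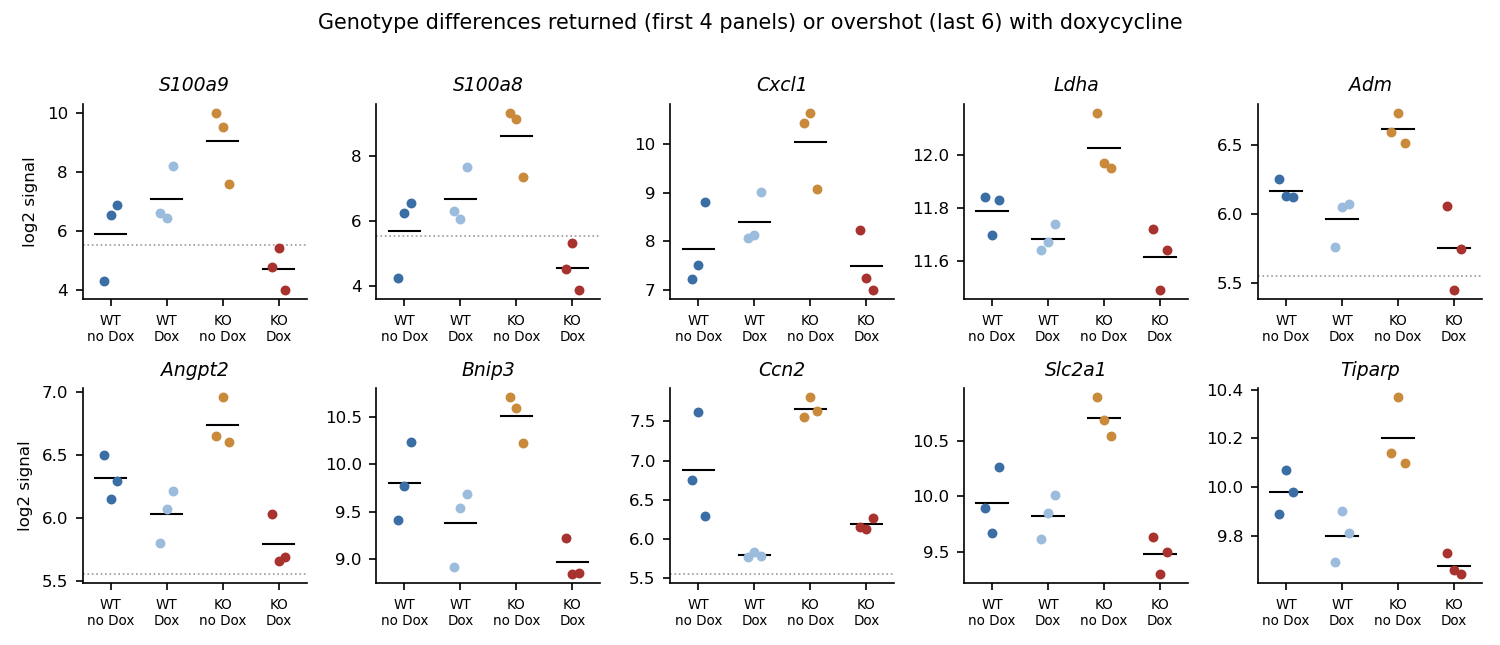
Log2 signal of 4 returned genes (S100a9, S100a8, Cxcl1, Ldha) and the 6 overshot genes on each of the 12 arrays, by group. Points are arrays, black bars group means and dotted lines the floor of 5.55; KO no Dox is the highest group in each panel, and KO Dox ends below untreated WT for the overshot genes and overlaps it for the returned ones on at least 1 array.

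Promoter sequences are shown for 3 glucose or mitochondria genes of these classes, since HIF binds the core ACGTG and the members moved together. They run from 250 bases before to 50 after a start site (RefSeq, GRCm38.p6), with capitals for ACGTG or its reverse complement CACGT; the 3 were picked because they hold a match, after the values were seen.
Bnip3, chr7:138909457-138909756, minus strand: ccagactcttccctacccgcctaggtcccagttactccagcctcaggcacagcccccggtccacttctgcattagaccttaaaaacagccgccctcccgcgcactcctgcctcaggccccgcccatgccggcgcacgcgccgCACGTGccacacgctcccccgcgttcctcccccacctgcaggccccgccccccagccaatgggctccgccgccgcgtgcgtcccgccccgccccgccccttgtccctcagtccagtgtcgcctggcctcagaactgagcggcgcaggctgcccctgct
Slc2a1, chr4:119108495-119108794, plus strand: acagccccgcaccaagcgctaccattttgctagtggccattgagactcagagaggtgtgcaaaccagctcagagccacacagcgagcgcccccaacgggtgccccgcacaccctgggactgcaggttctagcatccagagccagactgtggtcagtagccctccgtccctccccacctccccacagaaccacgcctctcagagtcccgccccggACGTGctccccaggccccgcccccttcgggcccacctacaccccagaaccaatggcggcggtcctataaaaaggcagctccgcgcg
Ldha, chr7:46845554-46845853, plus strand: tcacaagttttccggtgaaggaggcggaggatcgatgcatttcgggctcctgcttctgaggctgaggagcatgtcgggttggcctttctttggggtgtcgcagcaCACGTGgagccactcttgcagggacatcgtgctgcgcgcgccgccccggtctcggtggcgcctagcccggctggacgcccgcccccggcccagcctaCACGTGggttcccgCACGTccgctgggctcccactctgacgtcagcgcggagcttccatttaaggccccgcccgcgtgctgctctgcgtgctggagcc
The Bnip3 window holds CACGTG, in which both orientations overlap, from 108 bases before the start site, and the Slc2a1 window a single match 36 bases before it. The first Ldha window holds 5 matches, the second window of that gene none. Windows were found for 4 overshot genes, and Adm and Tiparp hold no match. ACGTG was present in 36.0% of the 25 windows of 18 returned genes, in 27.7% of those of genes called higher, in 23.9% of those called lower and in 25.4% of all 11468 windows of tested genes. The beta-catenin partner motif CTTTGAT was in 2.29%, 2.82% and 2.49% of windows of genes called higher, called lower and tested. These shares are counts of letters in windows of 1 length and not of bound sites.

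The extended gene was Wnt7b, a canonical Wnt ligand. It went from 9.33, 9.05 and 9.34 in untreated APC-WT to 8.85, 9.09 and 8.71 in APC-KO without Dox and 8.48, 8.29 and 8.18 with Dox, a difference of -0.92 ± 0.11 (adjusted p 4.85e-05). The APC-KO Dox tumours were below every other array. The fall against untreated APC-WT kept its call with each array left out, while the step between APC-KO without and with Dox was lost with 5 of the 12 arrays, one at a time (adjusted p up to 0.166 without APC-KO Dox replicate 3).

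Unsettled genes were called in neither later comparison, a rule that does not set where their levels lay. Il1b, which encodes interleukin 1 beta, was at 8.75, 7.16 and 8.00 in untreated APC-WT, 9.33, 9.10 and 8.66 in APC-KO without Dox and 8.58, 7.94 and 8.24 with Dox (0.28 ± 0.30), and its sign turned, at -0.13, without APC-WT no-Dox replicate 2. The APC-KO Dox values lay inside the range of untreated APC-WT. Ptgs2, the inducible cyclooxygenase gene, kept 0.20 ± 0.19 of 0.94, and the chemokine receptor gene Ackr3 0.29 ± 0.13 of 0.84. Irf7, a regulator of interferon genes, kept -0.59 ± 0.25 of -0.90, P2ry10 -0.47 ± 0.21 of -0.83 and the matrix gene Prelp -0.55 ± 0.21 of -0.93. The median share that remained in this class was 53.1%.

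Differences added under Dox, called against untreated APC-WT but not between the genotypes without Dox, numbered 1125, 605 higher and 520 lower. For 1069 of them the genotype difference had the same sign, and for 463 it had an unadjusted p under 0.05; 27 were called between APC-KO with and without Dox. Without APC-KO Dox replicate 3 the class held 474 genes. Matrix metalloproteinase genes had the largest falls in it. Mmp13 was at 7.89, 7.36 and 8.45 in untreated APC-WT, at 8.69, 7.58 and 8.30 in APC-KO without Dox and at 6.55, 5.50 and 5.22 with Dox (-2.14 ± 0.43, adjusted p 0.00274). The APC-KO Dox arrays were below those of every other group. Mmp12, macrophage elastase, was at 6.29, 7.49 and 8.49 against 6.64, 3.67 and 3.27 (-2.90 ± 0.82, adjusted p 0.0177), with overlap at 1 tumour of each group, and its call was lost when replicate 3 of untreated APC-WT or replicate 2 or 3 of APC-KO with Dox was left out (adjusted p up to 0.0862).

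Among single genes of the same class were Mt2, Mt1 and Arg1. Mt2 and Mt1 encode metallothioneins that bind zinc and copper, and near-identical copies can share probes. Mt2 was at 11.19, 11.70 and 12.03 in untreated APC-WT and at 10.19, 9.93 and 9.26 in APC-KO Dox (-1.85 ± 0.25, adjusted p 0.000189), and Mt1 fell by 1.39 ± 0.23. Their groups did not overlap, and the APC-KO tumours without Dox lay near the APC-WT ones. Of the 7 metallothionein and zinc transport genes tested these were the 2 that fell, while the zinc importer genes Slc39a8 (1.18 ± 0.23) and Slc39a10 (0.43 ± 0.08) rose, and the list's median was 0.038. Arg1, the arginase of alternatively activated and suppressive myeloid cells, was at 10.88, 11.19 and 11.37 against 10.06, 8.93 and 9.24 (-1.74 ± 0.33, adjusted p 0.00164). Of 16 macrophage markers tested 2, Arg1 and Msr1, were lower, near the share of 12.9% over all tested genes. Csf1r was higher (0.19 ± 0.06, a call lost in 4 of the 12 fits with 1 array left out), Lyz2 was at -0.13 and C1qa at -0.05. The list's median was -0.019, and its mean level was 10.61 to 10.73 in untreated APC-WT and 10.51 to 10.57 in APC-KO Dox tumours. Cdkn1a, the p21 cell cycle inhibitor, fell by 0.85 ± 0.10, and Ldlrad3 (1.28) and the gene of the secreted serpin PEDF, Serpinf1 (0.81), rose.

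Glycolysis genes were lower as a list. Of 16 tested, 12 fell and 0 rose, against 12.9% lower and 15.4% higher over all tested genes. The list's median was -0.434 against 0.010 over all tested genes. At an unadjusted p under 0.05 it was 13 lower and 0 higher. The genotype median without Dox was 0.019 and that between APC-KO with and without Dox -0.427. Examples were the aldolase gene Aldoc (-0.81 ± 0.15), the phosphofructokinase genes Pfkp (-0.66) and Pfkl (-0.64 ± 0.10) and the pyruvate dehydrogenase kinase gene Pdk1 (-0.48 ± 0.10). Further ones were Tpi1 (-0.46), Hk1 (-0.45), Aldoa (-0.42), Pgk1 (-0.41) and Pkm (-0.33). Hk2 was at 0.01, and Pgam1 and Pfkfb4 were at 0.05 and 0.11 without a call. With 1 array left out between 10 and 13 members fell.

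HIF targets outside glycolysis were lower too. Of 17 tested, 9 fell and 0 rose, the same as at an unadjusted p under 0.05, with a median of -0.329; the genotype median without Dox was 0.342 and that of the APC-KO comparison with Dox -0.558. Ddit4, a brake on mTORC1, went from 10.72, 10.82 and 10.75 to 9.93, 8.84 and 9.95 (-1.19 ± 0.22). Ankrd37 went from 7.28, 6.89 and 7.49 to 6.75, 5.62 and 6.14 (-1.05 ± 0.23). In both genes the groups did not overlap. Vegfa, the main angiogenic factor gene, was at 0.09, P4ha2 at 0.31 and Plod2 at 0.10, none of them called. When replicate 3 of untreated APC-WT or replicate 2 of APC-KO with Dox was left out, 6 fell. Oxidative phosphorylation genes had a median of 0.054, with 6 of 24 higher and 1 lower. Leaving out replicate 1 of untreated APC-WT left 2 higher. The counts of this paragraph stand beside 12.9% lower and 15.4% higher over all tested genes.

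Interferon-stimulated genes were lower, and most were kept from the genotype difference. Of 23 tested, 15 fell and 0 rose (18 and 0 at an unadjusted p under 0.05), all 23 lay below 0, 14 were kept, and the median was -0.582; without Dox 18 were lower in APC-KO and the median was -0.550. Gbp2, a guanylate-binding GTPase gene, was at 11.53, 11.19 and 11.60 against 10.49, 10.37 and 10.09 (-1.12 ± 0.15). Zbp1, a sensor of Z-form nucleic acid, fell by 1.08, Usp18, which removes ISG15, by 1.02, and the transcription factor gene Stat2 by 0.88 ± 0.14. Without replicate 1 of untreated APC-WT, or without replicate 3 of APC-KO with Dox, 9 fell. Both differences from APC-WT behind the kept class use the same untreated APC-WT arrays. In APC-KO without Dox against APC-WT with Dox 1 of the 23 was lower, with a median of -0.102. Of 18 antigen presentation genes tested 9 fell in the APC-KO Dox tumours, and the list's median was -0.299. All 9 belong to the class I path, led by its activator gene Nlrc5 (-0.93 ± 0.12), the immunoproteasome genes Psmb9 (-0.71) and Psmb10 (-0.64) and the transporter gene Tap1 (-0.66 ± 0.11). The class II genes H2-Ab1 and Cd74 were at -0.32 ± 0.21 and -0.28 ± 0.17 without a call. The class I genes H2-D1 and B2m were at -0.16 and -0.07, also without a call, and a difference between the classes was not tested. For both lists the falls in APC-KO Dox stand beside 12.9% lower over all tested genes, and the rises beside 15.4% higher.

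Of 7 T cell markers tested, 5 fell: Cd3g (-1.55 ± 0.23), Cd8b1 (-1.35), Cd3d (-1.15), Cd8a (-1.05 ± 0.15) and Cd3e (-0.60). All 5 were kept from the genotype difference. Without Dox 6 of the 7 were already lower in APC-KO, with a median of -0.692. Both comparisons use the same untreated APC-WT arrays. Cd8a was at 7.18, 6.82 and 7.06 in untreated APC-WT and at 6.22, 5.55 and 6.13 in APC-KO Dox tumours, without overlap, while Cd4 was at 0.08. The list's median was -1.052, or -0.599 with no filter on level, and its mean level was 6.19 to 6.44 against 5.49 to 5.93. Of 9 granzyme and perforin genes 6 fell, with Gzmb at -1.07 ± 0.28 and Prf1 at -0.95 ± 0.19. Gzmd and Gzmf, neighbours of near-identical sequence whose probes may be shared, were at -1.96 ± 0.62 and -1.77 ± 0.52. Their arrays overlapped between the groups, and both calls were lost on leaving out replicate 3 of untreated APC-WT or replicate 1 or 3 of APC-KO with Dox (adjusted p up to 0.146). With APC-KO Dox replicate 3 left out the list had 1 fall. Of 4 NK markers Klrd1 (-0.67 ± 0.15) and Klre1 (-0.58 ± 0.20) fell, and Eomes was at 0.15. The call of Klre1 was lost in 8 of the 12 limma fits with 1 array left out (adjusted p up to 0.158). The falls of these 3 lists in APC-KO Dox stand beside 12.9% lower over all tested genes.

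Of 18 chemokine genes tested 7 fell and 1 rose, against 12.9% lower and 15.4% higher over all tested genes. The list's median was -0.443. Ccl3 was at 6.67, 6.44 and 6.84 against 5.79, 5.58 and 4.77 (-1.27 ± 0.28), Cxcl14 fell by 1.06 ± 0.15, at least 1.46-fold, Cxcl9, which attracts CXCR3-bearing T cells, by 1.01 ± 0.22, and Ccl5 by 0.77. The monocyte chemokine gene Ccl2 was the one that rose (0.29). Of 4 neutrophil markers tested limma called none, with 1 higher and 1 lower at an unadjusted p under 0.05; their median was -0.788, and Csf3r was at 0.24 ± 0.10. Of the 14 cytokine and NF-kB feedback genes tested 2 fell, near the share of 12.9% over all tested genes.

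Of 18 destruction complex members and Wnt receptors 4 rose and 3 fell, near the shares of 15.4% and 12.9% over all tested genes, with the Frizzled receptor genes Fzd8 (0.82 ± 0.13) and Fzd5 (0.59) higher and Amer1, an APC partner (-0.39), lower; Ctnnb1, beta-catenin itself, was at -0.07. Leaving out replicate 1 of untreated APC-WT left 1 of the 3 falls. Of 12 target genes 3 rose and 3 fell. Lef1, a DNA-binding partner of beta-catenin, was at 6.72, 6.47 and 6.69 against 7.18, 7.19 and 7.40 (0.63 ± 0.09) and the secreted modulator gene Dkk2 rose by 0.73 ± 0.12, without overlap of the groups. Apcdd1 (above) and Bmp4 (-0.65 ± 0.14) fell, and the feedback inhibitor gene Axin2 was at -0.03 (interval -0.29 to 0.23) and Myc at 0.11. The list's median was 0.028.

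Of 7 tryptophan and kynurenine genes tested 2 rose and 1 fell, and of 6 genes of the aryl hydrocarbon receptor list 2 rose and 1, Tiparp, fell, against 15.4% and 12.9% over all tested genes. Kyat3, a kynurenine aminotransferase gene, was at 7.77, 7.48 and 7.73 against 8.29, 8.49 and 8.44 (0.75 ± 0.09), the amino acid transporter subunit gene Slc3a2 rose by 0.34 ± 0.09 and Afmid, the formamidase of the path, fell by 0.52 ± 0.10. Kyat3 and Afmid were kept from the genotype difference. Nqo1, a quinone reductase gene driven by this receptor and by NRF2, was at 7.34, 7.36 and 7.01 against 8.19, 8.15 and 8.49 (1.04 ± 0.11), without overlap. Ahr rose by 0.31 ± 0.11, a call lost in 7 of the 12 fits with 1 array left out (adjusted p up to 0.174).

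The counts of this paragraph stand beside 15.4% higher and 12.9% lower over all tested genes. Of 22 ribosome assembly genes 10 rose and 1 fell, with a median of 0.158, led by Nolc1 (0.63) and Bysl (0.51), and 6 rose without APC-KO Dox replicate 3. Of 26 matrix genes 3 rose, among them the collagen gene Col5a1 (0.69) and the gelatinase gene Mmp9 (0.66), and 7 fell, among them Mmp2 and Mmp13 (above) and Tnc, the matrix glycoprotein tenascin C (-1.77 ± 0.21). Leaving out APC-KO Dox replicate 3 left 1 matrix gene higher and 5 lower, and leaving out replicate 1 of untreated APC-WT left 4 higher and 4 lower. Fibroblast markers had 4 of 12 higher, led by Dpt, which encodes the matrix protein dermatopontin (1.11 ± 0.29), and with Pdgfra (0.42) among them, and 1 lower, Thy1 (-0.37); Col1a1 and Dcn were at 0.17 and 0.01. Of 11 endothelial markers 4 rose, among them Plvap (0.39) and Cdh5 (0.36 ± 0.12), and Vwf fell (-0.53). Leaving out replicate 3 of untreated APC-WT left 1 higher in each of these marker lists, and for the endothelial list so did APC-KO Dox replicate 2. Markers of B cells, mast cells, normal colon epithelium, erythroid cells, enteric neurons and skeletal muscle had no called member, but few were tested. It was 1 of 10 for B and plasma cells, 1 of 9 for mast cells and 3 of 14 for colon epithelium. For erythroid cells and for enteric neurons and glia it was 1 of 8 each, and for skeletal muscle 4 of 7. At an unadjusted p under 0.05 (limma) the B cell marker, the erythroid marker and 1 colon marker were higher.

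**Figure D3:**
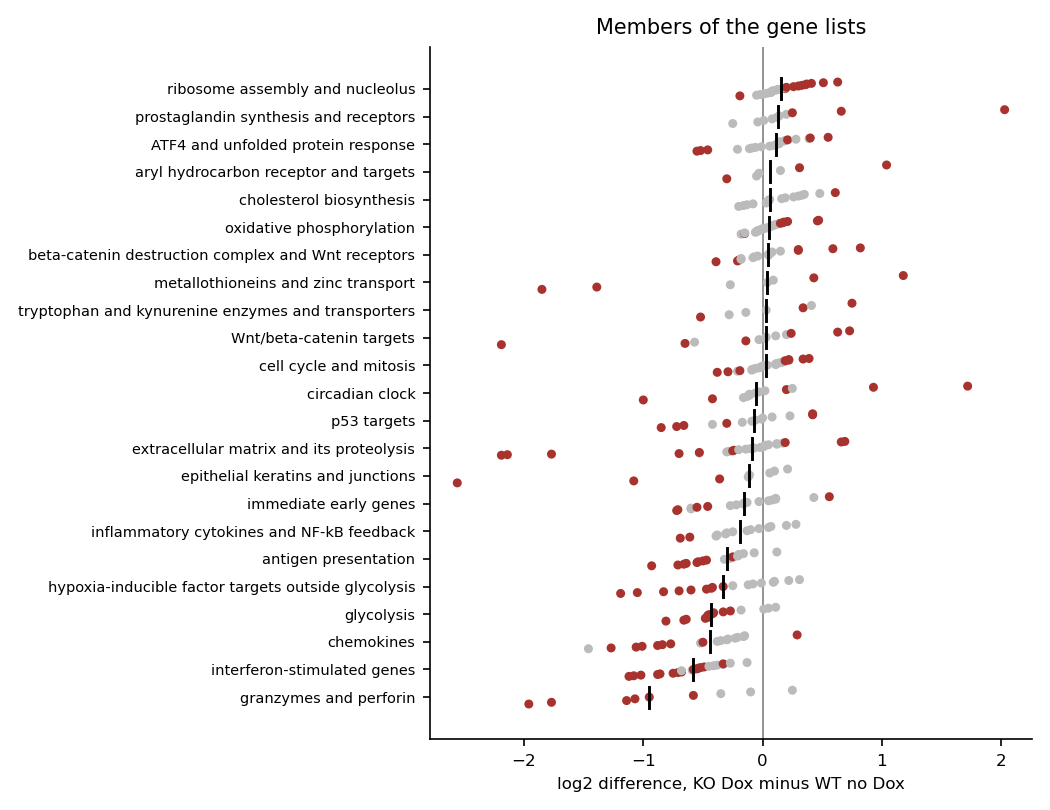
Log2 difference between APC-KO Dox and untreated APC-WT tumours for each tested member of 23 gene lists. Points are genes, red where called and grey where not, and black ticks are list medians, which run from -0.955 for granzymes and perforin to 0.158 for ribosome assembly; the called members of glycolysis and of interferon-stimulated genes lie on the lower side.

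The other 6 arrays, APC-KO without Dox against APC-WT with Dox, share no array with this comparison and carry the genotype difference with Dox on the opposite side. There 2138 genes were called (19.3%). Of these 1242 were called here in the same direction, 58.1% of the calls there and 39.6% of the 3135 here, and 29 in the opposite direction. Differences of 2-fold or more split by direction: of the 52 genes higher here 49 were called higher there, and of the 79 lower here 42 were called lower there and 69 had the same sign. Lrrn4cl (3.69), Epb41l3 (-3.23), Nrep (-3.11) and Apcdd1 (-2.57) were as different there as here. Krt8 (0.13), Tnc (-0.10) and Arg1 (-0.07) were near 0 there, and Ms4a4d was at -0.91.

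Gene lists differed in whether they kept their direction on those 6 arrays, where 1326 of 11070 tested genes were higher and 812 lower. HIF targets were 10 of 17 higher and 0 lower there, with a median of 0.441, against 9 lower here, and glycolysis genes were 7 higher and 1 lower, with a median of 0.135. Bnip3 was at 1.12 and Slc2a1 at 0.88 there, against -0.83 and -0.46 here. Interferon-stimulated genes were 1 of 23 lower there, with a median of -0.102 against -0.582 here, and T cell markers had no call in limma, with 2 lower at an unadjusted p under 0.05 and a median of -0.423. Of the 9 granzyme and perforin genes 4 were lower there. Whether a list differs between both comparisons was not tested.

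**Figure D4:**
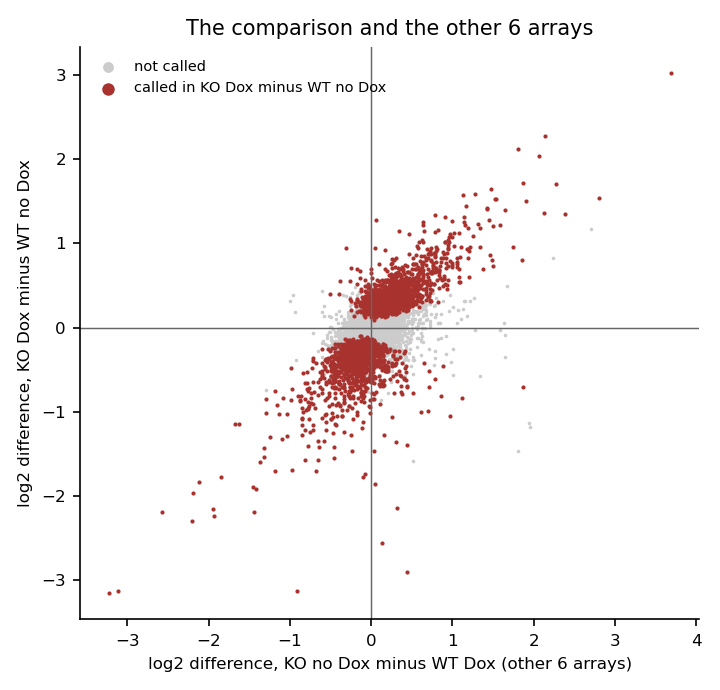
Log2 difference of each of 11070 genes in APC-KO Dox minus untreated APC-WT tumours (vertical) against APC-KO no Dox minus APC-WT Dox tumours (horizontal), which share no array. Red points were called in the first; the largest rises lie on the right, while some of the largest falls, such as Krt8 and Tnc, lie near 0 on the horizontal axis.

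Calls were unevenly spread over chromosomes. On chromosome 13, 36.3% of 408 genes were lower and 2.7% higher, with a median of -0.16, and on chromosome 10, 28.6% were lower. Chromosomes 19, 16 and X had 33.6%, 32.0% and 31.5% of their genes higher, against 15.4% over all genes, with medians of 0.133, 0.13 and 0.038. Each array's median for chromosome 13 was between -0.129 and -0.06 in the APC-KO Dox tumours and between 0.046 and 0.112 in the untreated APC-WT tumours. For chromosome 19 these ranges were 0.014 to 0.092 and -0.094 to -0.059, and neither pair overlaps. Genes shared by a chromosome are not independent of each other, and copy number was not measured.

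**Figure D5:**
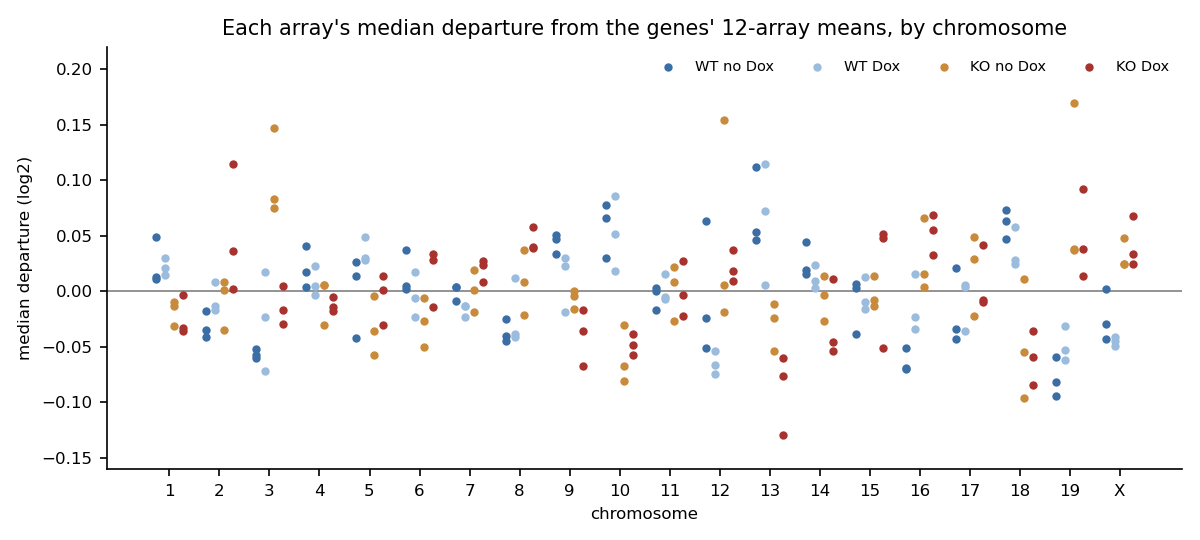
Median departure of the tested genes of each chromosome from their 12-array means, per array and less that array's median over all genes (log2). Points are arrays, coloured by group; KO no Dox stands apart on chromosome 3, and KO Dox and untreated WT lie apart on chromosomes 13, 16 and 19, among others.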

How the data were processed

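RNA of 12 tumours, 3 in each of 4 groups of genotype and Dox, was read on Affymetrix arrays. The authors deposited 1 table of log2 values, made with MAS5 per the submitters' processing notes; no source used here states the scaling or log step, and the log2 scale was inferred from the range, 1.86 to 14.16. Of 45101 probe sets 64 were controls, 34945 had 1 gene symbol, 932 several and 9160 none, and 34741 were matched to the mouse reference. Each gene was read by its brightest single-symbol probe set and tested where the mean over 12 arrays reached 5.55, which set aside 7123 genes; no detection calls were used. A fold is a bound where a whole group was under this floor and the other group above it.

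A group-means model of all 12 arrays was fitted with limma 3.58.1 (R 4.3.3, eBayes with trend), with 4 two-sided contrasts and Benjamini-Hochberg adjustment over 11070 genes. Exact tests of 3 against 3 cannot go below p = 0.1. The scripts were tested on simulated data. Figures used Python 3.11.15 and matplotlib 3.10.9. Promoters and chromosomes came from RefSeq GRCm38.p6.

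Named were Apc and Tdo2, the 10 largest rises and falls among called genes without overlap, the 6 largest of each class and up to 4 members of a list, plus other members given for their role and chosen after their values were seen. Members, lists and rules were chosen with earlier results of these data known. Alternatives were the filter, the probe set rule, normalization, the variance prior, array weights, the samples in the fit, a replicate block and each array left out.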

Additional observations from a re-analysis of the deposited data

How the results depend on the processing

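The number of arrays limits the precision, and signals close to the floor may mask differences. The count of called genes stayed between 2359 and 3273 over the alternatives without left-out arrays and was 2031 to 3234 with 1 array left out. The returned class, 25 genes, was 16 with the 75th percentile filter, 14 with the mean of probe sets, 10 without a trend, 11 with only the groups compared, and 0 to 31 with 1 array left out. The overshot class, 6 genes, was 1 to 9 with 1 array left out, and the added class, 1125, was 474 to 1538. The kept class was 1420 to 2103 and the overlap with the other 6 arrays 841 to 1606. With the replicate block 3087 genes were called and 17 returned. Deviations of same-numbered tumours of untreated APC-WT and APC-KO Dox correlated at -0.001, 0.175 and -0.066. Those of differently numbered tumours of these 2 groups correlated at -0.252 to 0.227. Other pairs of groups were not compared, and whether same-numbered tumours share a batch was not tested. Median centring put 59.8% of calls on the higher side, against 54.4%, and leaving out arrays gave 47.9 to 61.1%. Medians of lists turned sign for the aryl hydrocarbon receptor list (-0.023 with no filter, -0.026 with the 75th percentile filter), destruction complex and Wnt receptors (-0.044 with that filter, -0.077 with the mean of probe sets), dendritic cells (0.154, that filter), metallothioneins (-0.647, that filter, and -0.097, mean of probe sets), colon epithelium (-0.021 with no filter and with the mean of probe sets) and smooth muscle (0.346, 75th percentile filter). With the mean of probe sets Btrc was at -0.05, Bub1 at -0.01 and Lss at -0.18. With 1 array left out, differences that changed sign ranged from -0.73 to 0.13 for Cxcl1, from -0.01 to 0.30 for Eomes, from -0.13 to 0.67 for Il1b, from -0.82 to 0.04 for Mylpf, from -0.14 to 0.14 for Retn from -0.23 to 0.08 for Sox10, from -0.27 to 0.16 for Ier3, from -0.22 to 0.04 for Mgarp, from -0.14 to 0.01 for Flt3 and from -0.05 to 0.06 for Upk1b, and none of these 10 genes was called. The cause of these changes was not tested. Of the values of named genes under alternatives, 3652 kept direction and side of the threshold, 256 lost a call and 56 gained one.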
